A study of Mus musculus with 12 samples.

Results

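The 26S proteasome and its partners were followed through the 48 genes, of 13935 in the table, whose symbols begin with Psm, a letter from a to g and a digit, pseudogene symbols left out. These comprised the 7 alpha ring genes, 4 non-catalytic and 3 catalytic beta genes of the constitutive 20S core, the 3 immunoproteasome beta genes, 17 genes of the 19S regulatory particle (6 base ATPases, 3 other base genes and 8 lid genes), 5 activator genes, 1 inhibitor, 4 core and 3 base assembly chaperone genes, and Psmc3ip. Psmc3ip, a recombination factor, carries a matching name but is no proteasome subunit, and it was kept because the symbol rule takes it. All 48 passed the filter on low values, a mean of at least 10, with means over the 12 libraries between 33.6 (Psmc3ip) and 2349 (Psmd2) normalized counts, which are reads divided by a size factor for each library. The rule used no measured value. Psma8 and Psmb11, the testis and thymus forms, are not analysed here.

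The proteasome degrades proteins marked with ubiquitin. Its 19S particle recognises, unfolds and feeds them into the 20S barrel, where the catalytic beta subunits Psmb5, Psmb6 and Psmb7 cut them. Interferon-responsive cells can build Psmb8, Psmb9 and Psmb10 in their place, which changes the peptides offered on class I molecules, and cells of blood origin, neutrophils included, commonly carry such immunoproteasomes.

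RNA came from mouse bone marrow neutrophils sorted on CD11b and Ly6G and held in culture for 8 h. There were 4 groups of 3 libraries: Socs3fl/fl cells (floxed, with the Socs3 gene flanked by loxP sites and no Cre named) left untreated, Socs3fl/fl cells given G-CSF at 10 ng/ml, LysMcre Socs3fl/fl cells left untreated, and LysMcre Socs3fl/fl cells given G-CSF at 10 ng/ml. G-CSF is the cytokine that drives neutrophil production, and Socs3 is the feedback inhibitor of its receptor. LysMcre places Cre in the Lyz2 locus, which is active in myeloid cells, so the LysMcre-labelled groups differ from the floxed ones in the Lyz2 allele as well as in Socs3. The word Untreated also stands in the titles of the LysMcre G-CSF libraries, all 3 of which were placed by their descriptions. No age is given, and nothing states that the 3 libraries of a group are separate mice, so p-values measure the spread between libraries, which may be technical.

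Depth was 19495754 to 26472118 recovered reads per library. Socs3, the targeted gene, averaged 225 ± 23.1 (SD, n = 3) normalized counts in untreated libraries of floxed cells and 292 ± 34.5 in those of LysMcre-labelled cells, and 19504 ± 1635 and 37335 ± 1219 with G-CSF, so its level over the whole gene was not lower under the LysMcre label. Whether the counted reads cover the part flanked by loxP sites is not known. Lyz2 was lower under that label, at 6053 ± 493 against 222593 ± 3235 without G-CSF and 569 ± 64.8 against 46227 ± 2464 with it. The summed 14 neutrophil markers, Ly6g, S100a8 and S100a9 among them, lay between 1945689 and 2298153 in every library, with overlapping ranges in all 4 groups. Single markers moved under that sum: after G-CSF 5 of the 14 rose and 7 fell in each genotype (limma). In LysMcre-labelled cells they ran from -3.08 to 2.17 on the log2 scale. With G-CSF 2 were higher and 8 lower in LysMcre-labelled than in floxed cells. Over all genes 24.1% rose and 24.6% fell after G-CSF in floxed cells, and 31.1% and 31.6% in LysMcre-labelled cells. Between the genotypes with G-CSF 17.1% of all genes were higher and 18.9% lower.

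Markers of other cells moved with the groups as well. Summed monocyte markers (9 genes) were 22302 to 23204 in floxed untreated, 21776 to 23456 in LysMcre-labelled untreated, 18686 to 22181 in floxed G-CSF and 16627 to 19714 in LysMcre-labelled G-CSF libraries. Summed T and NK cell markers (7 genes), at 369 to 431 and 459 to 502 untreated, were 205 to 255 and 183 to 221 with G-CSF. Summed proliferation genes (6) were 7458 to 10041 and 7973 to 8856 untreated and 10539 to 11596 and 10458 to 11448 with G-CSF. In each genotype 5 of the 6 rose and 1 fell. Summed progenitor markers (8 genes) were 7632 to 13640.1 and 11189.8 to 11546 untreated and 13117 to 17385 and 15824 to 17589 with G-CSF, overlapping in floxed cells only. B cell markers (7 genes) were 8752 to 12477, 11929.7 to 17801, 6947 to 10492 and 10209 to 16962 in the 4 groups in the same order. The 8 eosinophil, basophil and mast cell markers summed to 1560 to 2552, 2221 to 3220, 2817 to 3847 and 3104 to 3207. They overlapped between untreated and G-CSF libraries in LysMcre-labelled cells only. Dendritic cell markers (6 genes) were 1171 to 1635, 1373 to 1830, 1207 to 1770 and 1579 to 2061. Erythroid markers (4 genes) were 210 to 761, 152 to 1206, 177 to 265 and 148 to 180. Single markers did not all follow these sums after G-CSF (limma). Of the 9 monocyte markers 6 rose and 2 fell in floxed and 5 rose and 3 fell in LysMcre-labelled cells, though the sums were lower. Of the 7 T and NK markers 0 rose and 1 fell in each genotype. Of the 8 progenitor markers 3 rose and 1 fell in floxed and 2 rose and 1 fell in LysMcre-labelled cells. Shares of all genes are given above. The part of other cells in the results on proteasome genes was not tested.

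Promoters of 41 of the 48 genes were matched in RefSeq's mouse sequences (GRCm38.p6). Shown are stretches before the start of Psmb9 and Psmb8, the immunoproteasome genes that fell, of Psmb6, the counterpart of Psmb9, and of Psmd14, a 19S gene that rose, each read 5′ to 3′ on the gene's strand. Capitals mark matches, on either strand, to 5 motifs: TTCNNNGAA (STAT, or GAS), GAAA and GAAA with 2 bases between them (interferon response element), GGG and CC with 5 bases between them (NF-kB), CCAAT, and TGACNNNGC (antioxidant response element). The 250 bases before the RefSeq start of Psmb9 and of Psmb8 lie inside these genes in GENCODE M21, downstream of their outermost annotated starts. All of these bases are annotated there as untranslated exon sequence. Only 30 bases around each match or group of matches are therefore given. Psmb9 (minus strand) holds 5 NF-kB matches, of which a pair overlap, at chr17:34187480-34187509, chr17:34187389-34187418 and chr17:34187366-34187395, and 1 CCAAT match read on the other strand at chr17:34187331-34187360. Psmb8 (plus strand), the neighbouring gene, holds 1 GAS match at chr17:34198087-34198116. All 250 bases are given for Psmb6, chr11:70525107-70525356 (plus strand), with 1 NF-kB match and 1 antioxidant element that ends at the start, and for Psmd14, chr2:61711444-61711693 (plus strand), with 1 CCAAT match and 1 NF-kB match. The window of Psmb10 holds none of these letters.
Psmb9, stretch 1: aGGCCCCACCCcagattgaGGGCAGGACCC
Psmb9, stretch 2: ctggtagaacGGCACGCCCCttgcgcgatg
Psmb9, stretch 3: cgcgatgatgGGGCGGGGCCtcagtctgca
Psmb9, stretch 4: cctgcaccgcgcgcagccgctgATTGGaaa
Psmb8: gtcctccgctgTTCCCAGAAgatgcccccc
Psmb6: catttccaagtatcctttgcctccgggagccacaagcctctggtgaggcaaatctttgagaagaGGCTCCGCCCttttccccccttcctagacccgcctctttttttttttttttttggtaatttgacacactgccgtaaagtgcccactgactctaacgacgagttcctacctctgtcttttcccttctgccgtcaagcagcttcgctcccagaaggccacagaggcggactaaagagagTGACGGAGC
Psmd14: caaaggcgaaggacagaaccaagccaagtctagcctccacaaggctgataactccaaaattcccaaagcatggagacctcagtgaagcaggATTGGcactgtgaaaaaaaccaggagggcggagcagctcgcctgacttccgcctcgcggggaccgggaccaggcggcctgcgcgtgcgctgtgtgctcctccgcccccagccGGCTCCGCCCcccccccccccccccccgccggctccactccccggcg

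Such matches were common in promoters at large. Shares over all are counted per promoter. Among the 41, a gene was counted when any of its promoters matched, and Psma6, Psmc2 and Psme2 have further promoters. The NF-kB letters occurred in 45.8% of 32851 promoters and in 23 of the 41, CCAAT in 33.8% and in 14, and the antioxidant element in 10.2% and in 5. GAS letters occurred in 7.02% of all promoters and in 2 of the 41, Psmb8 and Psmg1, and the interferon element in 2.98% and in 3, Psmb3, Psmd4 and Psmd9. A match describes the letters only.

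The immunoproteasome gene Psmb9 (beta 1i, chr17:34181987-34187764 in mm10) fell furthest of the core genes. It stood at 1858, 1708 and 1952 normalized counts in the floxed untreated libraries, 1729, 1786 and 1735 in the LysMcre-labelled untreated ones, 1496, 1234 and 1186 in the floxed G-CSF ones and 785, 815 and 779 in the LysMcre-labelled G-CSF ones. The untreated genotypes overlapped, the floxed G-CSF libraries lay below both, and the LysMcre-labelled G-CSF libraries lay below all others. On the log2(value + 1) scale, the limma difference after G-CSF was -0.50 (SE 0.08, adjusted p = 6.33e-05) in floxed cells and -1.14 (SE 0.08, adjusted p = 3.71e-09) in LysMcre-labelled cells, the latter 2.21-fold lower. With G-CSF, LysMcre-labelled cells had 1.65-fold less than floxed cells, a log2 difference of -0.71 (SE 0.08, adjusted p = 3.7e-06) by limma. The 2 responses to G-CSF themselves differed, by -0.64 (SE 0.11, adjusted p = 0.000542) in limma's interaction term. Psmb9 shares 212 exon bases with Tap1 on the opposite strand, and the strand of counting is not given in the sources used here.

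Psmb8 (beta 5i, chr17:34197721-34201454) fell under 1 condition. It stood at 2027, 1975 and 2182 normalized counts in the floxed untreated libraries, 1996, 2015 and 2091 in the LysMcre-labelled untreated ones, 2049.7, 1906 and 1898 in the floxed G-CSF ones and 1657, 1531 and 1354 in the LysMcre-labelled G-CSF ones. The LysMcre-labelled G-CSF libraries were below all 9 others. Their limma difference was -0.43 (SE 0.07, adjusted p = 5.85e-05) against untreated cells of that genotype and -0.37 (SE 0.07, adjusted p = 0.000616) against floxed G-CSF cells, 1.29-fold lower. In floxed cells the difference after G-CSF was -0.08 (SE 0.07, adjusted p = 0.381) in limma, and the interaction was -0.35 (SE 0.10, adjusted p = 0.0173).

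Psmb10 (beta 2i, chr8:105935735-105938444) did not pass the test in any comparison. It stood at 598, 545 and 586 normalized counts in the floxed untreated libraries, 578, 542 and 562 in the LysMcre-labelled untreated ones, 574, 623 and 602 in the floxed G-CSF ones and 631, 606 and 537 in the LysMcre-labelled G-CSF ones, and the 4 groups overlapped. Its limma differences after G-CSF were 0.06 (SE 0.07, adjusted p = 0.553) in floxed and 0.07 (SE 0.07, adjusted p = 0.4) in LysMcre-labelled cells, and both turned negative, to -0.04 and -0.19, when libraries were scaled to equal totals. The interaction for Psmb10 was 0.02 (SE 0.10, adjusted p = 0.939) by limma, so the 3 immunoproteasome genes did not share 1 pattern.

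The constitutive counterparts were measured in the same libraries. Psmb6 (beta 1, replaced by Psmb9) stood at 956, 923 and 913 normalized counts in the floxed untreated libraries, 933, 886 and 1027 in the LysMcre-labelled untreated ones, 1078, 1143 and 1029 in the floxed G-CSF ones and 1327, 1158 and 1099 in the LysMcre-labelled G-CSF ones. Both G-CSF groups lay above both untreated groups. Psmb6 differed after G-CSF by 0.22 (SE 0.08, adjusted p = 0.0265) in floxed and 0.33 (SE 0.08, adjusted p = 0.00133) in LysMcre-labelled cells in limma. The floxed call was lost without floxed untreated replicate 2 or 3 or floxed G-CSF replicate 2.

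Psmb5 (beta 5, replaced by Psmb8) stood at 1096, 1136 and 1041 normalized counts in the floxed untreated libraries, 1115, 1087 and 1148 in the LysMcre-labelled untreated ones, 1129.9, 1183 and 1131 in the floxed G-CSF ones and 1297, 1218 and 1345 in the LysMcre-labelled G-CSF ones. Its LysMcre-labelled G-CSF libraries were the highest, and the other 3 groups overlapped in part. Limma gave 0.20 (SE 0.06, adjusted p = 0.00572) after G-CSF in LysMcre-labelled cells and 0.16 (SE 0.06, adjusted p = 0.0355) between genotypes with G-CSF, and the second call was lost without floxed G-CSF replicate 1 or 3 or LysMcre-labelled G-CSF replicate 1 or 3. The first difference turned to -0.06 under equal totals. Psmb7 (beta 2, replaced by Psmb10) stood at 871, 756 and 818 normalized counts in the floxed untreated libraries, 789.8, 744 and 772 in the LysMcre-labelled untreated ones, 919.7, 1023 and 888 in the floxed G-CSF ones and 1104, 883 and 929.7 in the LysMcre-labelled G-CSF ones. Each G-CSF group lay above both untreated groups, and the limma difference in LysMcre-labelled cells was 0.33 (SE 0.08, adjusted p = 0.00291). In floxed cells the Psmb7 difference after G-CSF did not pass. Exon bases shared with Nek6 on the opposite strand leave the source of some Psmb7 reads uncertain.

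**Figure D1:**
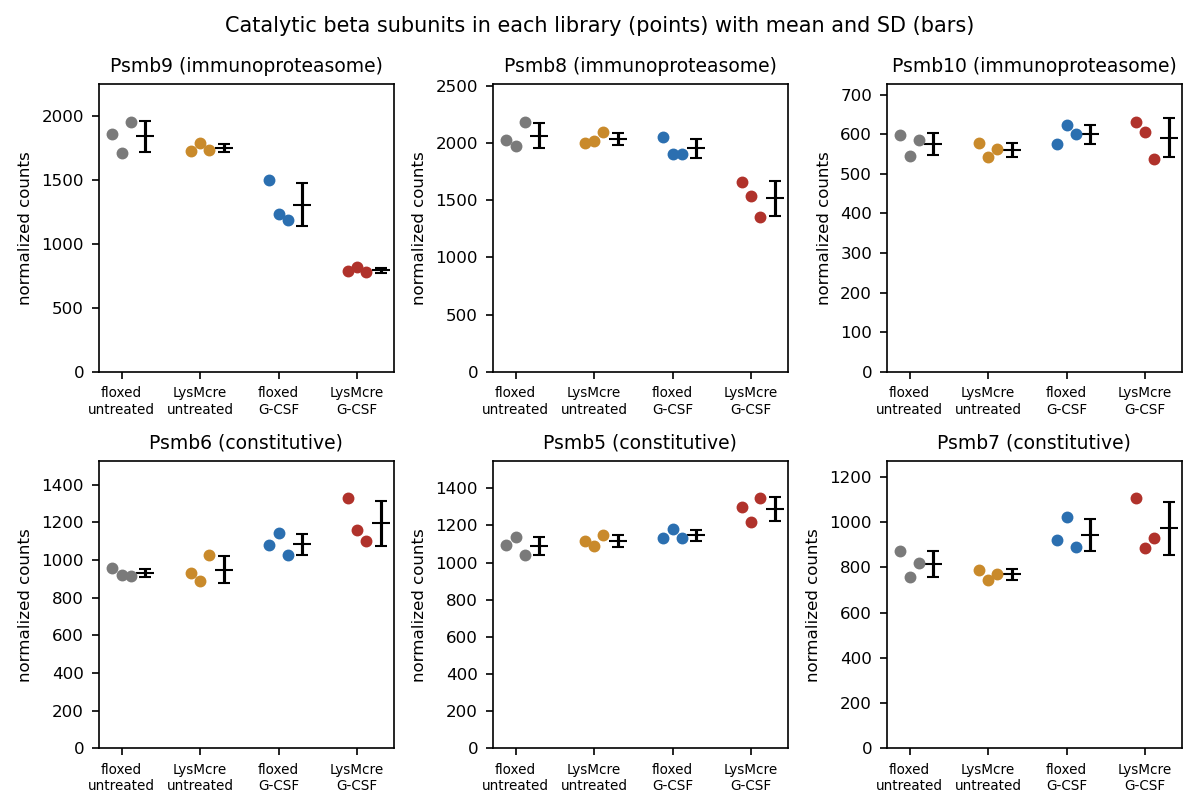
Normalized counts (vertical axis, from 0) of the 3 immunoproteasome genes and their 3 constitutive counterparts in each library (points), by group, with mean and SD (bars). Psmb9 stepped down from 1708 to 1952 in floxed untreated to 779 to 815 in LysMcre-labelled G-CSF libraries, while Psmb10 overlapped in all groups.

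The share of each immunoproteasome gene in its pair, on values per kb of exon, does not move with the scaling of a library. The share of Psmb9 in Psmb9 plus Psmb6 was 50.2 ± 1.83% (SD, n = 3) in floxed untreated, 48.6 ± 2.2% in LysMcre-labelled untreated, 38.1 ± 3.08% in floxed G-CSF and 25.4 ± 1.91% in LysMcre-labelled G-CSF libraries. It did not overlap between untreated and G-CSF libraries of either genotype, nor between the genotypes with G-CSF. The share of Psmb8 in Psmb8 plus Psmb5 was 33.5 ± 2.13% (SD, n = 3) in floxed untreated, 32.6 ± 0.377% in LysMcre-labelled untreated, 31.1 ± 1.29% in floxed G-CSF and 23.8 ± 2.37% in LysMcre-labelled G-CSF libraries, with the LysMcre-labelled G-CSF libraries below the rest. The share of Psmb10 in Psmb10 plus Psmb7 was 58.7 ± 0.64% (SD, n = 3) in floxed untreated, 59.4 ± 0.0726% in LysMcre-labelled untreated, 56.1 ± 1.38% in floxed G-CSF and 55.0 ± 2.53% in LysMcre-labelled G-CSF libraries. It did not overlap between untreated and G-CSF libraries of either genotype, and the LysMcre-labelled untreated libraries lay just above the floxed untreated ones. In the exact two-sided permutation test 8 of the 12 share comparisons reached p = 0.1, the smallest that 3 against 3 allows, which is 0.15 after adjustment over the 12. Comparing levels per kb depends on the length used: in floxed untreated libraries Psmb9 averaged 503 and Psmb6 497 normalized counts per kb of all exons, but 638 and 963 per kb of the longest transcript.

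Without G-CSF no proteasome gene passed the test between the genotypes. Limma called 0 of 48, beside 0.0647% of all genes tested called higher and 0.0503% lower (0.115% in all), and edgeR and DESeq2 on recovered reads also called 0. At an unadjusted p below 0.05 there was 1, Psme2b, at 0.24 (adjusted p = 1 in limma). The median log2 difference was -0.02 over the 48 and -0.01 over all 13915 genes. Single-gene differences ran from -0.22 to 0.24, with standard errors that allow small changes to be missed.

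With G-CSF, LysMcre-labelled cells had more RNA of 14 of the 48 genes than floxed cells and less of 3. Over all genes tested 17.1% were called higher and 18.9% lower (36% in all), against 29.2% and 6.25% of the 48, but under equal totals the counts were 6 and 7 of 48. The 14 were 9 genes of the 19S particle, 3 of the constitutive core (Psma3, Psmb4 and Psmb5), the activator Psme4 and the chaperone Psmd5. The 3 lower genes were Psmb9, Psmb8 and Psme2b. The higher calls lost under equal totals were those of Psma3, Psmb4, Psmb5, Psmc2, Psmd2, Psmd4, Psmd6 and Psme4. The count of 14 fell to 9 without floxed G-CSF replicate 3 or without LysMcre-labelled G-CSF replicate 1. The median difference was 0.10 over the 48, 0.18 over the 17 19S genes, 0.05 over the 14 constitutive core genes and -0.37 over the 3 immunoproteasome genes, beside -0.01 over all genes.

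**Figure D2:**
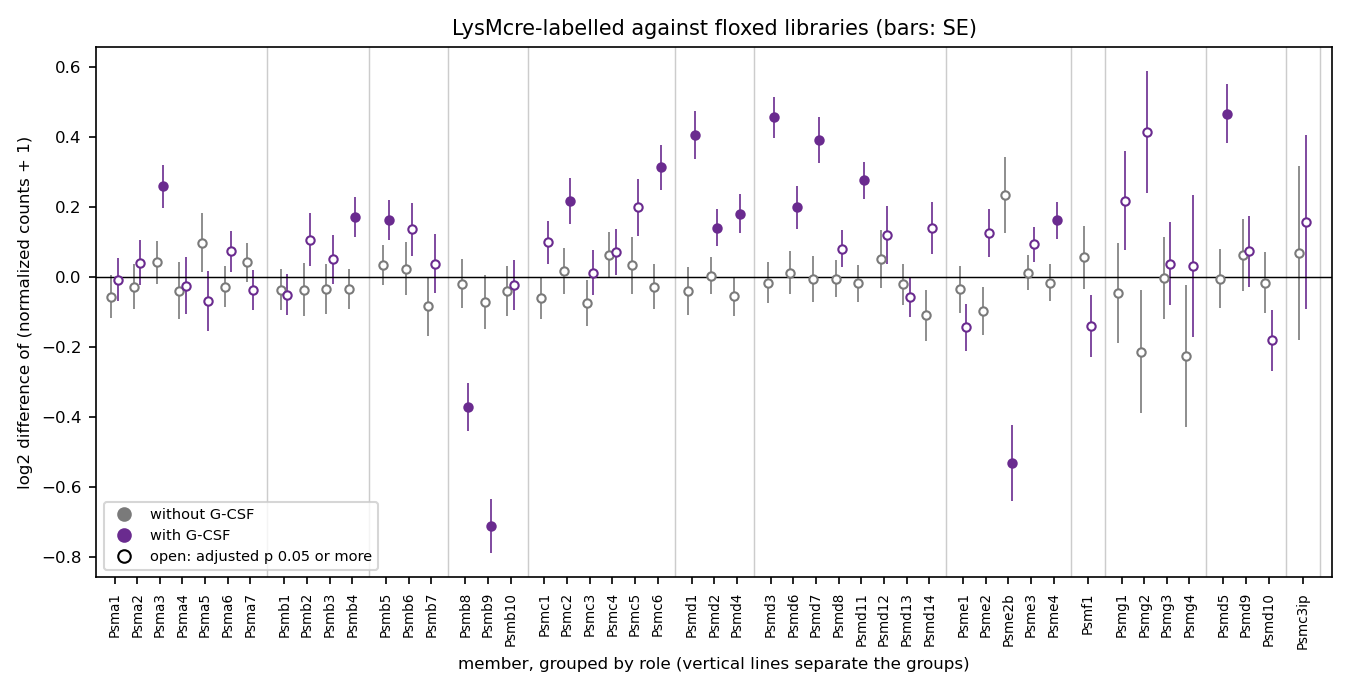
Log2 difference of (normalized counts + 1) between LysMcre-labelled and floxed libraries (vertical axis; points with SE) for each of the 48 genes, grouped by role along the horizontal axis, without G-CSF (grey) and with G-CSF (purple). Filled points pass limma's adjusted threshold of 0.05: none without G-CSF, and 14 higher and 3 lower with it. Under equal totals the counts with G-CSF are 6 higher and 7 lower.

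G-CSF raised more proteasome genes than it lowered in both genotypes under the authors' size factors, though not under equal totals in LysMcre-labelled cells. In floxed cells 20 of 48 rose and 3 fell (41.7% and 6.25%), beside 24.1% and 24.6% of all genes (48.8% in all), and 13 rose without floxed G-CSF replicate 2. In LysMcre-labelled cells 29 rose and 5 fell (60.4% and 10.4%), beside 31.1% and 31.6% of all genes (62.6% in all). Under equal totals the counts were 8 and 5 of 48 in floxed and 10 and 13 in LysMcre-labelled cells. In floxed cells the rises lost in this way were those of Psma3, Psma6, Psmb2, Psmb6, Psmc1, Psmc3, Psmc4, Psmd2, Psmd6, Psmd10, Psmd11 and Psmd12. In LysMcre-labelled cells they were those of Psma6, Psmb2, Psmb4, Psmb5, Psmb6, Psmb7, Psmc1, Psmc2, Psmc3, Psmc4, Psmd2, Psmd4, Psmd5, Psmd6, Psmd8, Psmd12, Psme3, Psme4 and Psmg1. That scaling moved the median of all genes to -0.09 and -0.26 in the G-CSF contrasts, -0.13 for genotype with G-CSF and -0.18 for the interaction. It also moved the share of higher genes among all calls, from 49.5% to 38.5% in floxed cells, from 49.6% to 31.2% in LysMcre-labelled cells, from 47.5% to 28.2% for genotype with G-CSF and from 48.6% to 23.0% for the interaction. In bulk RNA, fewer cells of a type and less RNA per cell cannot be told apart.

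Most genes of the 19S regulatory particle rose after G-CSF. After G-CSF 13 of the 17 genes that the symbol rule takes rose in floxed and 16 of 17 in LysMcre-labelled cells. These are 76.5% and 94.1%, beside 24.1% and 31.1% of all genes. None of the 17 fell, and the medians were 0.20 and 0.36. Under equal totals 6 of the 17 rose and 1 fell in floxed and 7 rose and 2 fell in LysMcre-labelled cells. The lid subunit Shfm1, which the symbol rule leaves out, fell in LysMcre-labelled cells by 0.24 (limma, SE 0.06). The 19S gene that did not pass in LysMcre-labelled cells was Psmd13, a lid subunit, at 0.01 (SE 0.06, adjusted p = 0.858) in limma. Under equal totals Psmd13 was called lower there, at -0.25 (adjusted p = 0.000784 in limma), and so was Psmd4. All 6 base ATPases, the ring that unfolds substrates, rose in LysMcre-labelled cells and 5 of 6 in floxed cells, but under equal totals Psmc4 turned to -0.05 in LysMcre-labelled cells. Of the 8 lid genes 7 rose in each genotype, and of the other 3 base genes 1 rose in floxed and 3 in LysMcre-labelled cells, where Psmd4 turned to -0.11 under equal totals.

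Psmd3 (Rpn3), a lid subunit, had the highest rise of the particle in LysMcre-labelled cells. It stood at 1170.2, 1041 and 1168 normalized counts in the floxed untreated libraries, 1155, 1048 and 1140.1 in the LysMcre-labelled untreated ones, 1584, 1494 and 1566 in the floxed G-CSF ones and 2147, 2114 and 2113 in the LysMcre-labelled G-CSF ones. The 2 untreated groups overlapped, and each G-CSF group stood clear of them and of the other. Limma gave 0.46 (SE 0.06, adjusted p = 1.07e-05) in floxed cells, 0.93 (SE 0.06, adjusted p = 1.87e-09) in LysMcre-labelled cells (1.91-fold), 0.46 (SE 0.06, adjusted p = 2.26e-05) between genotypes with G-CSF and 0.47 (SE 0.08, adjusted p = 0.000797) for the interaction. All 4 Psmd3 calls held under every alternative run, equal totals included, as did the 4 of Psmb9 and the 3 each of Psmb8 and Psme2b.

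Psmd7 (Rpn8), the lid partner of the deubiquitinase Psmd14, followed the same order of groups. It stood at 424, 445 and 441 normalized counts in the floxed untreated libraries, 443, 450.4 and 413 in the LysMcre-labelled untreated ones, 562, 602 and 566 in the floxed G-CSF ones and 794, 757 and 721 in the LysMcre-labelled G-CSF ones. No G-CSF group overlapped an untreated one or the other G-CSF group. Its limma differences were 0.40 (SE 0.07, adjusted p = 0.000112) and 0.80 (SE 0.07, adjusted p = 3.65e-08) after G-CSF, 0.39 (SE 0.07, adjusted p = 0.000235) between genotypes with G-CSF and 0.40 (SE 0.09, adjusted p = 0.00577) for the interaction. The interaction was lost under equal totals. Psmd14, which cleaves ubiquitin from substrates, rose by 0.38 (SE 0.07, adjusted p = 0.000513) in floxed and 0.63 (SE 0.07, adjusted p = 2.13e-06) in LysMcre-labelled cells in limma.

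Psmd1 (Rpn2), a scaffold of the base, separated the genotypes. It stood at 1073, 1036 and 1031 normalized counts in the floxed untreated libraries, 1057, 960.1 and 1043 in the LysMcre-labelled untreated ones, 1145, 1281 and 1108 in the floxed G-CSF ones and 1659.7, 1569 and 1456 in the LysMcre-labelled G-CSF ones. Only the LysMcre-labelled G-CSF libraries stood far from the others, and the floxed G-CSF libraries lay just above both untreated groups. Limma gave 0.17 (SE 0.07, adjusted p = 0.0538) in floxed cells, which did not pass, 0.61 (SE 0.07, adjusted p = 1.16e-06) in LysMcre-labelled cells, 0.41 (SE 0.07, adjusted p = 0.000235) between genotypes with G-CSF and 0.44 (SE 0.10, adjusted p = 0.00341) for the interaction. Psmd1 lost its interaction under equal totals.

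The ATPase Psmc5 (Rpt6) showed the highest called rise in floxed cells. It stood at 522, 523 and 595 normalized counts in the floxed untreated libraries, 545, 511 and 627 in the LysMcre-labelled untreated ones, 802, 819 and 787 in the floxed G-CSF ones and 964, 863 and 943 in the LysMcre-labelled G-CSF ones. Both G-CSF groups lay above both untreated groups, with the LysMcre-labelled one higher. The limma differences were 0.56 (SE 0.08, adjusted p = 3.42e-05) and 0.72 (SE 0.08, adjusted p = 1.28e-06) after G-CSF, and between genotypes with G-CSF 0.20 (SE 0.08, adjusted p = 0.0672), which did not pass. Psmc6 (Rpt4) rose by 0.29 (SE 0.06, adjusted p = 0.00147) in floxed and 0.63 (SE 0.06, adjusted p = 4.32e-07) in LysMcre-labelled cells in limma, with an interaction of 0.34 (SE 0.09, adjusted p = 0.0133) that equal totals removed.

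The constitutive 20S core changed less evenly. Of its 14 genes 5 rose and 1 fell in floxed cells and 7 rose and 1 fell in LysMcre-labelled cells, with medians of 0.09 and 0.19 that turned to -0.00 and -0.07 under equal totals. Under equal totals 1 rose and 1 fell in floxed cells and 1 rose and 6 fell in LysMcre-labelled cells. The floxed count fell to 2 without floxed untreated replicate 2 or floxed G-CSF replicate 2. The 3 core genes higher in LysMcre-labelled cells with G-CSF became 1 without floxed G-CSF replicate 1 or 3 or LysMcre-labelled G-CSF replicate 1. No constitutive core gene passed the interaction test, although differences ranged from -0.17 to 0.22.

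Psmb3, a non-catalytic beta subunit, was the constitutive core gene that fell. It stood at 1914, 1784 and 1984 normalized counts in the floxed untreated libraries, 1796, 1769 and 1989 in the LysMcre-labelled untreated ones, 1608, 1494 and 1358 in the floxed G-CSF ones and 1613, 1513 and 1487 in the LysMcre-labelled G-CSF ones. Both G-CSF groups lay below both untreated groups and overlapped each other. Limma gave -0.35 (SE 0.07, adjusted p = 0.000651) in floxed and -0.27 (SE 0.07, adjusted p = 0.00385) in LysMcre-labelled cells. Psma3, an alpha ring subunit, rose by 0.25 (SE 0.06, adjusted p = 0.00339) and 0.47 (SE 0.06, adjusted p = 7.27e-06) in limma, while Psma7, in the same ring, stood at -0.01 (SE 0.06, adjusted p = 0.946) and -0.09 (SE 0.06, adjusted p = 0.206) and did not pass.

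**Figure D3:**
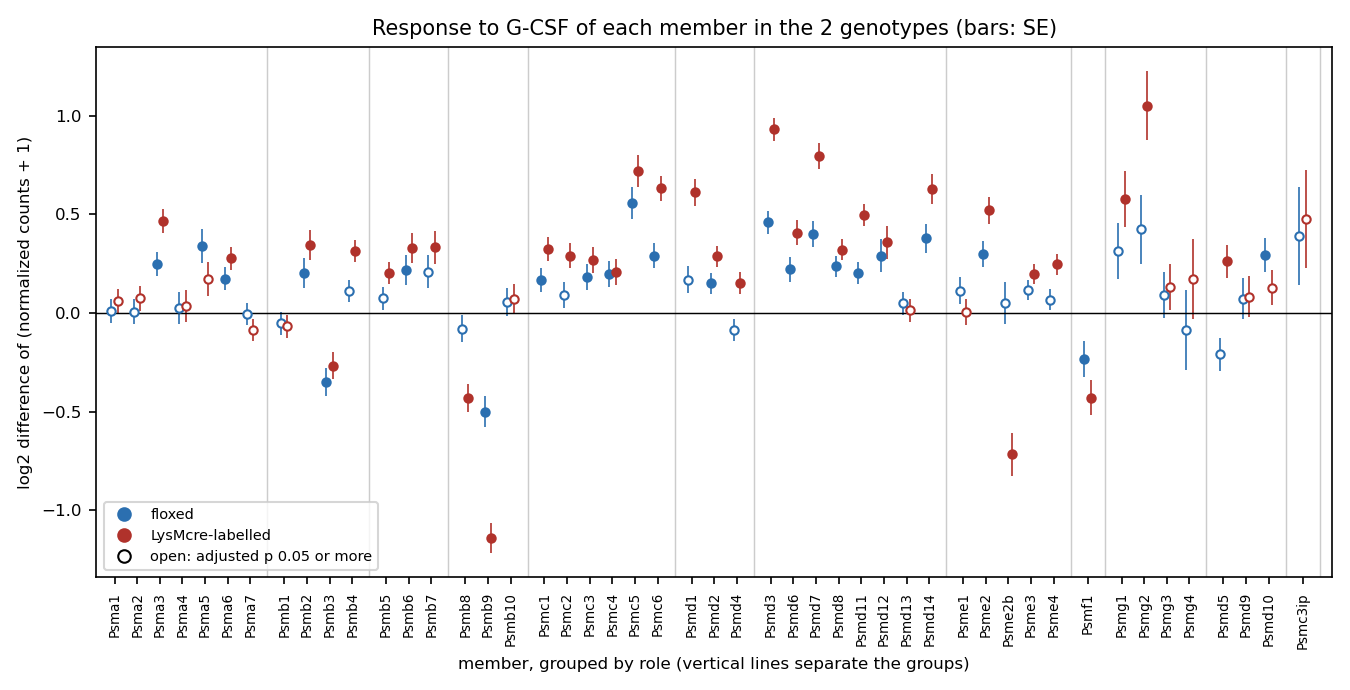
Log2 difference of (normalized counts + 1) after G-CSF (vertical axis; points with SE) for each of the 48 genes, grouped by role along the horizontal axis, in floxed and in LysMcre-labelled cells. Filled points pass limma's adjusted threshold of 0.05. Of the 17 19S genes among the 48, 13 and 16 rose and none fell, whereas under equal totals 6 and 7 rose and 1 and 2 fell. Psmb9 is the lowest point, at -1.14.

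The balance of the particles within a library was taken as the summed normalized counts of the 17 19S genes over those of the 14 constitutive core genes, which scaling does not move. Shfm1 is not in the 19S sum. The ratio was 1.09 ± 0.024 (SD, n = 3) in floxed untreated, 1.09 ± 0.0047 in LysMcre-labelled untreated, 1.20 ± 0.033 in floxed G-CSF and 1.30 ± 0.021 in LysMcre-labelled G-CSF libraries. The untreated groups overlapped at 1.07 to 1.12 and 1.08 to 1.09, the floxed G-CSF libraries followed at 1.16 to 1.22, and the LysMcre-labelled ones at 1.28 to 1.32. Being a sum over chosen genes, it carries no test. The 48 genes together took 0.210 to 0.238% of all normalized counts in every library.

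**Figure D4:**
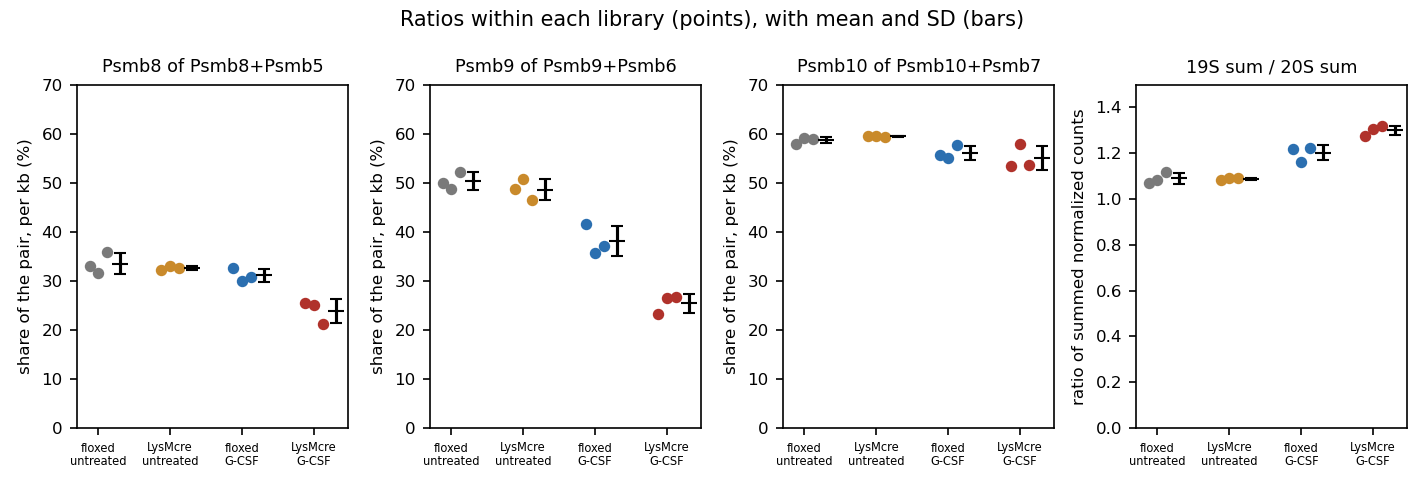
Quantities that do not depend on library scaling, by group: the share of each immunoproteasome gene in its pair with the constitutive counterpart, per kb of exon, in percent, and the ratio of summed 19S to summed constitutive 20S counts. Points are libraries. The share of Psmb9 averages 50.2% in floxed untreated and 25.4% in LysMcre-labelled G-CSF libraries, and the 19S to 20S ratio 1.09 and 1.30.

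Among the activators, which cap the core in place of the 19S particle, the paired PA28 genes parted. Psme1 (PA28 alpha) stood at 2118, 1876 and 2198 normalized counts in the floxed untreated libraries, 1985, 1959 and 2090.0 in the LysMcre-labelled untreated ones, 2261, 2267 and 2155 in the floxed G-CSF ones and 2179, 2009.8 and 1873 in the LysMcre-labelled G-CSF ones, with overlapping groups, and no limma test passed. Psme2 (PA28 beta) stood at 1344, 1252 and 1272 normalized counts in the floxed untreated libraries, 1212, 1148 and 1261 in the LysMcre-labelled untreated ones, 1635, 1579 and 1545 in the floxed G-CSF ones and 1934, 1637 and 1640.5 in the LysMcre-labelled G-CSF ones. Both G-CSF groups of Psme2 lay above both untreated groups, with limma differences of 0.30 (SE 0.07, adjusted p = 0.00171) in floxed and 0.52 (SE 0.07, adjusted p = 6.16e-06) in LysMcre-labelled cells. Under equal totals Psme1 was called lower by 0.26 on the log2 scale in LysMcre-labelled cells after G-CSF.

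Psme2b, a near-identical copy of Psme2, went the other way. It stood at 183, 170.5 and 179 normalized counts in the floxed untreated libraries, 205, 200.3 and 223 in the LysMcre-labelled untreated ones, 192, 183 and 177 in the floxed G-CSF ones and 147, 125 and 112 in the LysMcre-labelled G-CSF ones. The LysMcre-labelled G-CSF libraries were the lowest and the LysMcre-labelled untreated ones the highest. Limma gave -0.72 (SE 0.11, adjusted p = 3.25e-05) after G-CSF in LysMcre-labelled cells, -0.53 (SE 0.11, adjusted p = 0.00127) between genotypes with G-CSF, and an interaction of -0.77 (SE 0.15, adjusted p = 0.00194), the lowest of the 48. The assignment of reads shared by the copies is not given in the sources used here. The Psme2b values are therefore uncertain, and its exons also overlap 9930111J21Rik1.

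Psme3 (PA28 gamma, a nuclear activator) stood at 1335, 1402 and 1453 normalized counts in the floxed untreated libraries, 1426, 1433 and 1369 in the LysMcre-labelled untreated ones, 1517, 1518 and 1511 in the floxed G-CSF ones and 1646, 1580.4 and 1629 in the LysMcre-labelled G-CSF ones. The LysMcre-labelled G-CSF libraries were the highest, and limma gave 0.20 (SE 0.05, adjusted p = 0.00265) for them after G-CSF and 0.12 (SE 0.05, adjusted p = 0.0644) in floxed cells. Psme4 (PA200) stood at 2042, 2049.9 and 2069.5 normalized counts in the floxed untreated libraries, 1993, 1983 and 2122 in the LysMcre-labelled untreated ones, 2184, 2121 and 2156 in the floxed G-CSF ones and 2286, 2377 and 2579.9 in the LysMcre-labelled G-CSF ones. Its highest libraries were also the LysMcre-labelled G-CSF ones, with limma differences of 0.25 (SE 0.05, adjusted p = 0.000829) after G-CSF and 0.16 (SE 0.05, adjusted p = 0.0264) between genotypes. The Psme3 and Psme4 differences after G-CSF turned to -0.06 and -0.01 under equal totals, and the Psme4 genotype call was lost without floxed G-CSF replicate 2 or 3 or LysMcre-labelled G-CSF replicate 3.

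Psmf1 (PI31), which binds the core and inhibits it in vitro, stood at 363, 354 and 374 normalized counts in the floxed untreated libraries, 382, 358 and 396 in the LysMcre-labelled untreated ones, 302, 306 and 319 in the floxed G-CSF ones and 318, 281 and 248 in the LysMcre-labelled G-CSF ones. Both G-CSF groups lay below both untreated groups. Limma gave -0.43 (SE 0.09, adjusted p = 0.000605) in LysMcre-labelled cells, a call that held under every alternative run. The floxed difference of -0.23 (SE 0.09, adjusted p = 0.0421) passed limma but not DESeq2, and it was lost when any 1 of the 6 floxed libraries, or LysMcre-labelled untreated replicate 1 or LysMcre-labelled G-CSF replicate 2, was left out.

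Of the 4 core assembly chaperones Psmg1 and Psmg2 rose, in LysMcre-labelled cells. Psmg2 (PAC2), which with Psmg1 guides the alpha ring together, stood at 50.1, 41.1 and 51.8 normalized counts in the floxed untreated libraries, 42.1, 39.5 and 40.9 in the LysMcre-labelled untreated ones, 49.8, 73.5 and 71.6 in the floxed G-CSF ones and 92.5, 80.2 and 84.8 in the LysMcre-labelled G-CSF ones. The LysMcre-labelled G-CSF libraries were above all others, and limma gave 1.05 (SE 0.17, adjusted p = 7.97e-05), 2.10-fold, the highest rise of the 48. Psmg1 (PAC1) rose by 0.58 (SE 0.14, adjusted p = 0.00238) in LysMcre-labelled cells in limma, a call that equal totals removed. In floxed cells Psmg2 and Psmg1 stood at 0.43 (SE 0.17) and 0.31 (SE 0.14) and did not pass. Psmg3 and Psmg4, the second chaperone pair, passed no test.

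Psmd5 (S5b), a chaperone of the base, stood at 451, 445 and 394 normalized counts in the floxed untreated libraries, 419, 417 and 450.3 in the LysMcre-labelled untreated ones, 379, 353 and 383 in the floxed G-CSF ones and 467, 566 and 514 in the LysMcre-labelled G-CSF ones. The floxed G-CSF libraries were the lowest and the LysMcre-labelled G-CSF libraries the highest, with no overlap between them. Limma gave 0.47 (SE 0.08, adjusted p = 0.000436) between genotypes with G-CSF, 0.47 (SE 0.12, adjusted p = 0.00959) for the interaction, 0.26 (SE 0.08, adjusted p = 0.013) in LysMcre-labelled and -0.21 (SE 0.08, adjusted p = 0.0528) in floxed cells after G-CSF. The LysMcre-labelled G-CSF call was lost without replicate 2 of that group, and under equal totals the interaction was lost while the floxed difference passed at -0.30. Psmd10 (gankyrin) rose in floxed cells, by 0.29 (SE 0.09, adjusted p = 0.0116) in limma, and Psmd9 passed no test. Psmc3ip passed no test.

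The difference between the genotypes' responses to G-CSF passed limma's test for 10 of 48 genes, 7 higher in LysMcre-labelled cells (Psmd3, Psmd5, Psmd1, Psmd7, Psmc6, Psmd11 and Psmd4) and 3 lower (Psme2b, Psmb9 and Psmb8). Over all genes 10.9% were called higher and 11.5% lower (22.4% in all), against 14.6% and 6.25% of the 48, close to that background for the higher genes. Under equal totals 1 was higher, Psmd3, and 5 were lower. The lower genes were then Psmb9, Psmb8, Psme2b, Psme1 and Psma7. Of the 17 19S genes 6 passed and none was lower, with a median of 0.19 that became 0.02 under equal totals, beside -0.01 and -0.18 over all genes. Psmd4, a ubiquitin receptor, was the weakest, at 0.24 (SE 0.08, adjusted p = 0.0433) in limma, and this call was lost when any 1 of 9 of the 12 libraries was left out.

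Other genes of the pathway were read from lists, whose counts stand beside 24.1% of all genes called higher and 24.6% lower after G-CSF in floxed cells, and 31.1% and 31.6% in LysMcre-labelled cells. Of 10 further proteasome genes, 2 rose and 0 fell after G-CSF in floxed cells and 3 rose and 1 fell in LysMcre-labelled cells. These shares, 20% and 30% higher, were near those of all genes. Zfand5, a ubiquitin-binding proteasome activator, rose by 1.45 and 1.99 on the log2 scale (limma, SE 0.06 for each), and Usp14, the deubiquitinase that rides on the 19S particle, by 0.46 and 0.92 (SE 0.12 for each). Shfm1, the smallest lid subunit (also Sem1), fell in LysMcre-labelled cells by 0.24 (SE 0.06). Of 13 shuttling and unfolding factors 2 rose and 2 fell in floxed cells and 4 rose and 2 fell in LysMcre-labelled cells. Ddi2, the protease that activates the proteasome regulator Nfe2l1, rose by 2.16 and 2.70 (SE 0.06 for each), and the shuttle Ubqln2 fell by 0.46 and 0.70 (SE 0.09 for each). Of 5 ubiquitin genes 2 rose and 0 fell in floxed cells and 2 rose and 1 fell in LysMcre-labelled cells. Rps27a, which encodes ubiquitin fused to a ribosomal protein, fell by 0.58 (SE 0.07) in LysMcre-labelled cells.

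Of 11 transcription regulators linked to proteasome genes, 5 rose and 2 fell after G-CSF in floxed cells and 6 rose and 2 fell in LysMcre-labelled cells, or 45.5% and 54.5% higher beside 24.1% and 31.1% of all genes. Stat3, the main transducer of the G-CSF receptor, rose by 1.51 and 1.96 (limma, SE 0.06 for each), and Nfe2l2, which acts through the antioxidant element, by 0.81 and 1.40 (SE 0.05 for each). Between genotypes with G-CSF 6 were higher and 2 lower, where 17.1% of all genes were higher and 18.9% lower: Nfyb, a CCAAT-binding subunit, by 0.83 (SE 0.07) and Foxo4 by -0.57 (SE 0.06). Of 9 genes that can induce immunoproteasome genes, 7 rose and 1 fell in each genotype after G-CSF (77.8% higher, beside the same 24.1% and 31.1%), among them Ifngr1, the interferon gamma receptor, by 2.66 and 3.07 (SE 0.06 for each) and Irf9 by 0.83 and 1.41 (SE 0.12 for each). Between genotypes with G-CSF 5 were higher, Irf1 by 0.39 (SE 0.07) and Nfkb1 by 0.63 (SE 0.05) among them, and 1 was lower. Psmb9 and Psmb8 were lower in the libraries where 5 of the 9 listed inducer genes were higher. Any link between them was not tested.

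Of 11 class I antigen processing genes 1 rose and 2 fell in floxed cells and 4 rose and 2 fell in LysMcre-labelled cells after G-CSF. As shares, 9.09% rose and 18.2% fell in floxed cells, below the 24.1% and 24.6% of all genes, and 36.4% and 18.2% in LysMcre-labelled cells, beside 31.1% and 31.6%. Tap2, a peptide transporter subunit in the same gene cluster as Psmb8 and Psmb9, fell by 0.61 and 0.98 (limma, SE 0.05 for each), and its interaction was -0.37 (SE 0.08). Tap1, whose exons overlap those of Psmb9, did not pass, at -0.04 and -0.10. The chaperones Calr and Canx of the loading complex rose in LysMcre-labelled cells by 0.74 (SE 0.09) and 0.55 (SE 0.08). H2-K1, a class I heavy chain, fell in floxed cells by 0.41 (SE 0.08).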

How the data were processed

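Total RNA of sorted mouse neutrophils was sequenced in 12 libraries, 4 groups of 3. The deposited table holds a signal unit, gene counts that the authors divided by a size factor per library, as read from the deposited values: divided by their library's step, 100.0% of them came out whole to within 0.01 read. Per the submitters' processing notes the build is mm10. Which aligner, counter and gene annotation were used, and whether strand was, is not given in the sources used here. Positions and lengths come from GENCODE M21, which gave 13513 symbols a single match. Spreadsheet-like dates replaced 17 gene names, and 2 unnamed columns were empty.

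The analysis used log2(value + 1). After 20 rows averaging under 10 were dropped, 13915 genes were fitted in limma 3.58.1 (R 4.3.3), all 4 groups in one fit, with a trended prior. Tests were two-sided, and p-values were adjusted by Benjamini-Hochberg over all 13915 genes, with calls below 0.05. Log2 differences on this scale understate the change of low genes. The written design assumed normalized values, and limma stayed the main test after reads could be recovered. edgeR 4.0.16 and DESeq2 1.42.0 on recovered reads were alternatives, beside other pseudocounts, filters, quantile normalization, equal totals, a replicate block, fits of 2 groups, and leaving out each library. Shares of paired subunits were compared with exact permutation tests. The fitting script was tested on simulated data.

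The 48 genes, their roles and all gene lists were chosen with earlier results of these data known. Values in every library are given for Psmb5 to Psmb10, Psme1 to Psme4 and Psmf1, and per contrast for the 3 highest and 3 lowest differences past the threshold where the higher group averages 50 or more. Up to 4 genes of a pathway list are named per contrast, those with the largest differences past the threshold. Of these, 2 are not reported here. Tap1, Psme2b in the untreated comparison, and members named as exceptions or beside a counterpart fall outside this rule and were chosen after their values were seen. Exons of 15 of the 48 genes overlap another gene, so their reads are uncertain without strand.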

Additional observations from a re-analysis of the deposited data

Results flagged for a closer look

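The response to G-CSF differed between the genotypes for 10 of the 48 genes, by limma's interaction term (response in LysMcre-labelled cells minus response in floxed cells, log2 scale, adjusted over all genes). These are 20.8% of the 48, beside 22.4% of all genes tested, so the count is near that background. It was positive for Psmd3 at 0.47, Psmd5 at 0.47, Psmd1 at 0.44, Psmd7 at 0.40, Psmc6 at 0.34, Psmd11 at 0.29 and Psmd4 at 0.24. It was negative for Psme2b at -0.77, Psmb9 at -0.64 and Psmb8 at -0.35. Under equal totals Psmd3, Psme2b, Psmb9 and Psmb8 passed at 0.30, -0.93, -0.81 and -0.52, and the other 6 did not.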

How the results depend on the processing

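Scaling mattered most. Under equal totals the 48 genes gave 6 higher and 7 lower calls for genotype with G-CSF, 8 and 5 for G-CSF in floxed cells, 10 and 13 for G-CSF in LysMcre-labelled cells, and 1 and 5 for the interaction. Among called differences of the 48 genes and the named pathway genes, and all those of the immunoproteasome genes, the sign then turned for several. For G-CSF in LysMcre-labelled cells these were Psmb5 (-0.058), Psme3 (-0.062), Psme4 (-0.015), Psmc4 (-0.055), Psmd4 (-0.11), Psmb10 (-0.19) and Uba1 (-0.041). Psmb10 also turned for G-CSF in floxed cells (-0.036) and for the interaction (-0.15). For genotype without G-CSF, Psmb8 (0.032) and Psmb10 (0.011) turned. Psmd13 (-0.25), Psme1 (-0.26), Psma1 (-0.20), Psma2 (-0.19) and Psma4 (-0.22), not called before, were called lower in LysMcre-labelled cells after G-CSF, and other uncalled differences near 0 also turned. Quantile normalization turned Psmb8 for genotype without G-CSF (0.0092), the Psmb10 interaction (-0.0029), and Uba1 for G-CSF in floxed (-0.084) and LysMcre-labelled cells (-0.17). With 1 library left out, the higher calls ranged from 9 to 15 for genotype with G-CSF and from 13 to 22 for G-CSF in floxed cells. Psmb8 for genotype without G-CSF ranged from -0.048 to 0.023, its share there from -1.75 to 0.334 percentage points, and Psmb10 from -0.071 to 0.046 for genotype with G-CSF and from -0.032 to 0.085 for the interaction. The cause was not tested. Of 84 calls on the 48 genes 38 held under every alternative, and 27 were lost under equal totals and no other. Same-numbered libraries of different groups did not deviate together throughout (18 correlations from -0.32 to 0.46, 5 over 0.1). The 36 correlations of different-numbered ones ran from -0.48 to 0.36, 9 over 0.1. Between untreated and G-CSF libraries, same-numbered ones gave 0.46, 0.39 and 0.06 in floxed and 0.23, -0.05 and 0.05 in LysMcre-labelled cells. Different-numbered ones gave -0.48 to 0.28 and -0.22 to 0.21 there. Whether the numbers pair untreated with G-CSF libraries is not known, and the main fit used no pairing. With the replicate block 0 and 0, 12 and 3, 20 and 2, 29 and 5, and 6 and 3 genes were called higher and lower in the 5 contrasts. At this depth 3 reads equal 2.57 to 3.54 normalized counts. For the low gene Psmg2 the spread in LysMcre-labelled untreated libraries (40.8 ± 1.26, SD, n = 3) was no larger than counting error. Its floxed G-CSF libraries, given above, spread more widely. How far depth limits the precision of low genes was not tested.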
